A study of Sus scrofa with 6 samples.

Results

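Kelch-like proteins are adaptors of the ubiquitin ligase built on cullin 3. Their BTB domain binds CUL3, their kelch propeller holds a substrate, and the ring protein RBX1 at the other end of the cullin brings in the charged E2 enzyme, so that each adaptor points one ligase core at a different set of proteins. KEAP1, which holds the stress-response factor NFE2L2 (NRF2) at low levels, is the best known of them, and in brain other members act on kinases, cytoskeletal proteins and receptors. The family was described here in the cerebral cortex of pigs that had lost UBE3A, a ubiquitin ligase of the unrelated HECT type that neurons express mainly from the maternal copy.

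The family was taken as every protein-coding gene with a symbol that starts with KLHL, plus KEAP1, the BTB-kelch gene KBTBD2 and CUL3 itself. That gave 37 genes of 28965 in the deposited tables, of which 20288 were protein-coding. A total of 32 of the 37 had at least 10 exon reads in 3 or more libraries and were tested, among 14556 genes that met the same minimum. The family was chosen by the fold change and p-value of KLHL40, which had already ranked next after UBE3A in this comparison, so the difference of KLHL40 between genotypes is given as a description and supports nothing further.

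Polyadenylated RNA of 6 male pigs aged 140 days was sequenced, 3 carrying a UBE3A deletion inherited from the mother and 3 wildtype, with 1 library for each animal. The stretch of UBE3A that was removed is not stated in the sources used. Libraries held between 19796762 and 28126173 exon reads. UBE3A stood at 11.7, 7.80 and 7.73 CPM in deletion replicates 1 to 3, against 87.9, 93.7 and 91.5 CPM in wildtype replicates 1 to 3, so every library matched its label and UBE3A fell (log2 fold change -3.32, edgeR adjusted p = 0.000432). Levels of 1 gene are compared between animals as CPM (counts per library total, TMM-scaled), and levels of different genes are compared as the deposited TPM, which is divided by gene length. The deposited TPM ran lower in deletion libraries for the median gene (log2 ratio -0.13), whereas the median log2 fold change on TMM-scaled counts was 0.0027. TPM is therefore used here for the order of genes and for ranks, shares and ratios within a library. No genotype difference was tested on TPM. Summed markers of excitatory neurons stood at 4436 to 5538 CPM in deletion and 4942 to 6675 CPM in wildtype libraries, so the cortical neurons named by the label were present. Oligodendrocyte markers varied widely among animals, at 9492 to 23780 CPM in deletion and 10202 to 20797 CPM in wildtype libraries. In bulk tissue, fewer cells of a type and less RNA per cell cannot be told apart.

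Member levels ran from 0 reads to well over those of CUL3 itself, and a few adaptors made up most of the family's RNA. KLHL2, an actin-binding adaptor of brain that also targets WNK kinases, was the most abundant, with a mean of 140.2 TPM and a range of 118 to 154 TPM over the 6 libraries. Its lowest library lay above the highest library of any other member. KEAP1 followed at 44.9 TPM (38.2 to 55.3), KLHL7 at 44.6 TPM (39.2 to 52.1), CUL3 at 37.8 TPM (34.0 to 41.8) and KLHL9 at 28.4 TPM (26.8 to 30.3). The ranges of KEAP1, KLHL7 and CUL3 overlapped, but CUL3 lay below both KEAP1 and KLHL7 in each of the 6 libraries. KEAP1 lay above KLHL7 in some libraries and below it in others, so the order of KEAP1 and KLHL7 is not resolved. KLHL2 alone held 26.3% of the summed TPM of the adaptors, the 5 highest adaptors 53.5% and the 10 highest 72.2%.

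**Figure D1:**
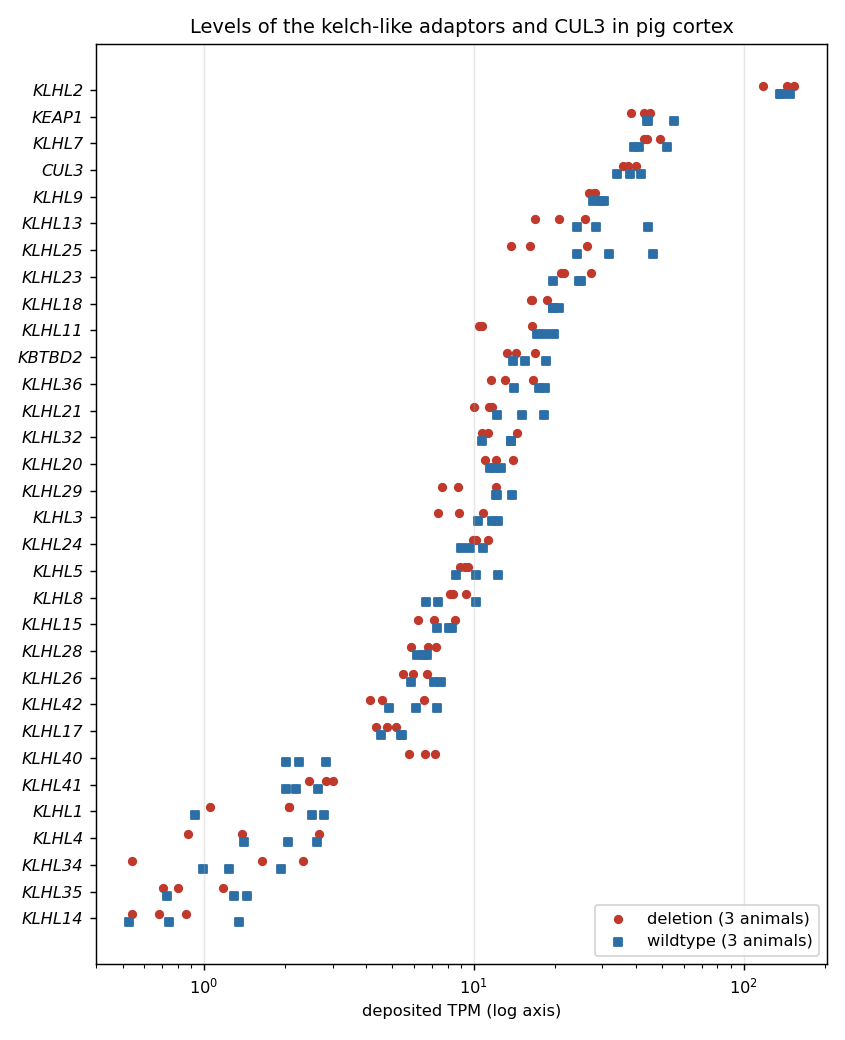
Deposited TPM of the 32 tested members on a log axis, in order of their mean, with deletion animals (red circles, 3) drawn above wildtype animals (blue squares, 3). KLHL2 stood apart at the top, and the 3 deletion animals of KLHL40 lay clear to the right of its wildtype animals.

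At the other end, 5 members had too few reads to be tested. KLHL31, known from heart and skeletal muscle, had 0 reads in all 6 libraries, which allows up to 0.107 to 0.152 CPM per library (3 counts). KLHL10, which is needed for sperm formation in mice, reached 3 reads at most. KLHL30, KLHL33 and KLHL38 reached at most 10, 15 and 11 reads in a library. Just inside the minimum were KLHL34, with 10 to 49 reads over the 6 libraries, and KLHL14, with 20 to 68. These limits cover counting error only.

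Summed over the 36 adaptors, the level per CUL3 was 14.0, 13.8 and 12.4 in deletion replicates 1 to 3, against 15.7, 16.0 and 12.8 in wildtype replicates 1 to 3 (ratio of summed adaptor TPM to CUL3 TPM). The means were 13.4 ± 0.897 in deletion and 14.9 ± 1.77 in wildtype cortex (SD, n = 3 each). The ranges of the groups overlapped, with wildtype replicate 3 below 2 of the deletion animals.

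No member passed edgeR's quasi-likelihood test after Benjamini-Hochberg adjustment over all 14556 genes, where 0.00687% of genes did, namely UBE3A. At an unadjusted p under 0.05 there were 7 of the 32 members, where 7.28% of all genes met that level. Of these, 3 had higher means in deletion cortex, beside 3.31% of all genes, and 4 had lower means, beside 3.96% of all genes. Those with higher means were KLHL40, KLHL41 and KLHL24, and those with lower means were KLHL11, KLHL25, KLHL13 and KLHL21. KLHL40 was in this count by the choice of the family. Without it, 6 of 31 members (19.4%) met that level, 2 with higher and 4 with lower means. The counts with animals left out and with DESeq2 include KLHL40. With 1 deletion animal left out, the count was 6 without replicate 1 (14.1% of all genes), 2 without replicate 2 (4.51% of all genes) and 1 without replicate 3 (3.29% of all genes). With 1 wildtype animal left out, it was 3 without replicate 1 (3.97% of all genes), 3 without replicate 2 (6.66% of all genes) and 8 without replicate 3 (9.12% of all genes). DESeq2 counted 4 members at an unadjusted p under 0.05, against 6.62% of all genes, and 1 after adjustment, KLHL40, against 0.131% of all genes, while limma-voom counted 0 after adjustment.

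Over the family as a whole, 16 tested members had positive and 16 negative log2 fold changes (deletion over wildtype), with a median of -0.01, beside 7351 positive and 7205 negative and a median of 0.00 over all genes. The median size, taken without sign, was 0.17 for members and 0.15 for all genes. The groups did not overlap for 6 members, where 13.8% of all genes had groups apart. In 3 of them deletion lay above wildtype, as in 6.8% of all genes, and in 3 below, as in 6.99% of all genes. Without KLHL40, by which the family was chosen, 5 of 31 members (16.1%) had groups apart, 2 with deletion above and 3 below. For 20 of the 32 members the 95% interval of the fold change lay inside 1.5-fold in either direction (62.5%, beside 57.4% of all genes), so larger changes fall outside their intervals. Spread among animals was ordinary: the median coefficient of variation of the tested members was 10.8% in deletion and 13.2% in wildtype cortex, beside 12% in each group for all genes.

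**Figure D2:**
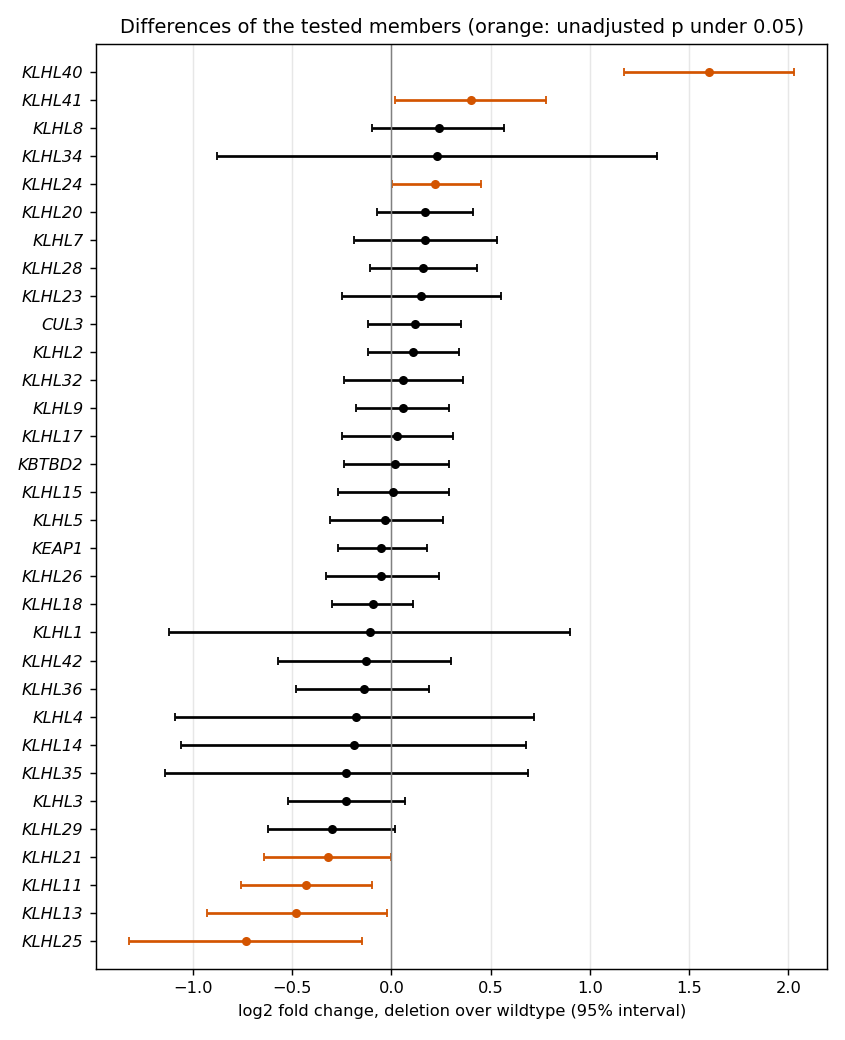
Log2 fold change of deletion over wildtype with its 95% interval for each of the 32 tested members (edgeR, n = 3 each). KLHL40, at 1.60, stood far from the other members, which ran from -0.73 (KLHL25) to 0.40 (KLHL41).

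KLHL40 and KLHL41 are a pair of adaptors best known from skeletal muscle, where they stabilise thin-filament proteins such as nebulin, and variants of either gene cause nemaline myopathy in people. KLHL40 (ENSSSCG00000011286) had 316, 244 and 291 reads in deletion replicates 1 to 3, against 82, 104 and 98 reads in wildtype replicates 1 to 3. Scaled, these were 11.2, 11.2 and 13.6 CPM in deletion and 3.45, 3.58 and 4.92 CPM in wildtype cortex. The lowest deletion animal lay above the highest wildtype animal by more than the whole range within either group. The fold was 3.02, with a 95% interval of 2.24 to 4.07 (log2 fold change 1.60, SE 0.19, edgeR adjusted p = 0.159).

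In level KLHL40 remained a minor adaptor in both genotypes. It held 1.18%, 1.17% and 1.56% of the summed adaptor TPM in deletion replicates 1 to 3, against 0.377%, 0.369% and 0.531% in wildtype replicates 1 to 3. Among the 37 members it ranked 24, 24 and 21 by TPM in the deletion animals and 28, 27 and 26 in the wildtype animals. Animal numbers begin with 14 for replicate 1 of each group and with 15 for the others, and what this marks is not stated. KLHL40 stood at 11.2 CPM in the deletion animal and 3.45 CPM in the wildtype animal numbered 14, and averaged 12.4 CPM in deletion and 4.25 CPM in wildtype animals numbered 15. In the authors' deposited table KLHL40 has a fold change of 3.05 and an adjusted p of 1.9e-07, the only member with an adjusted p below 0.05 there. An unadjusted p is given there for 36 members, of which KLHL10 has no adjusted p.

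KLHL41 had 8.91, 8.30 and 9.38 CPM in deletion replicates 1 to 3, against 6.07, 6.09 and 8.03 CPM in wildtype replicates 1 to 3. Every deletion animal lay above every wildtype animal, but wildtype replicate 3 came close. The fold was 1.32, with an interval of 1.02 to 1.72 (edgeR adjusted p = 0.675). Whether KLHL41 differed less than KLHL40 was not tested.

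**Figure D3:**
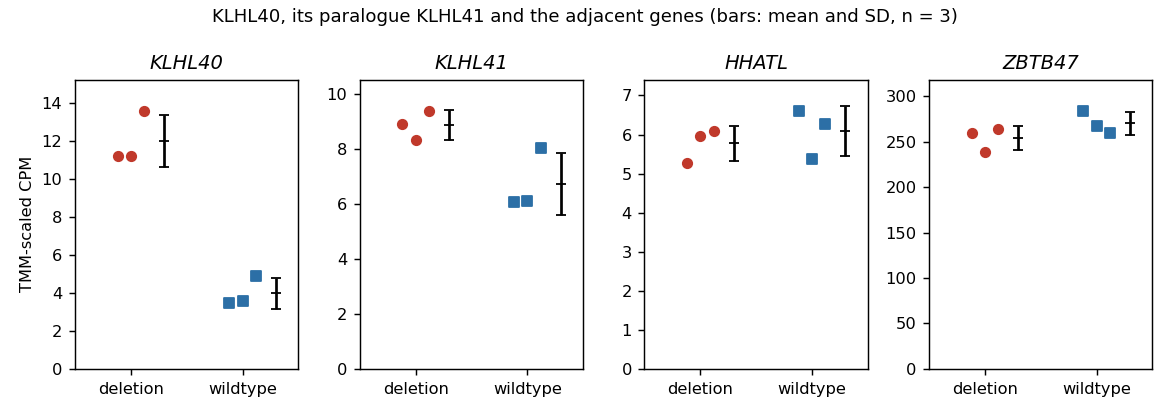
TMM-scaled CPM of KLHL40, its paralogue KLHL41 and the genes next to KLHL40, in deletion animals (red circles) and wildtype animals (blue squares), with black bars for mean and SD (n = 3 each). KLHL40 averaged 12 CPM in deletion and 3.98 CPM in wildtype cortex, while HHATL and ZBTB47 overlapped between the groups.

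The genes around KLHL40 did not share its difference in size. In the RefSeq gene order of assembly Sscrofa11.1, 5 neighbours on each side were tested, and none had an unadjusted p under 0.05. HHATL, whose RefSeq gene model overlaps that of KLHL40, had 5.27, 5.96 and 6.09 CPM in deletion replicates 1 to 3, against 6.61, 5.37 and 6.27 CPM in wildtype replicates 1 to 3, and the groups overlapped (log2 fold change -0.08, SE 0.17). ZBTB47, on the other side, had 259, 239 and 264 CPM in deletion and 284, 267 and 259 CPM in wildtype animals (log2 fold change -0.09, SE 0.09). The other 8 ran from -0.21 (CCDC13) to 0.32 (ACKR2). Whether reads were counted by strand is not stated, so reads of KLHL40 and HHATL may have been shared. The same holds for KLHL10, KLHL11, KLHL13, KLHL14, KLHL15, KLHL17, KLHL18, KLHL21, KLHL28, KLHL3 and KLHL32, whose RefSeq gene models also overlap another gene.

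Markers of skeletal muscle did not move with KLHL40 as a list. Of 29 listed genes 22 were found by symbol and 11 were tested, and their summed level was 533 to 557 CPM in deletion and 489 to 566 CPM in wildtype libraries. Most of that sum came from CKM and PYGM, an energy-metabolism pair that brain also expresses. Without this pair, a choice made after the values were seen, the sum was 30.8, 32.9 and 32.8 CPM in deletion replicates 1 to 3, against 31.2, 30.1 and 29.3 CPM in wildtype replicates 1 to 3. A total of 11 of the 22, among them the fast-fibre genes MYLPF, TNNC2 and TNNI2 and the muscle regulators MYOD1 and MYOG, had at most 11 reads in any library. The slow-fibre troponin TNNI1 had 1.52, 1.83 and 1.78 CPM in deletion and 0.843, 1.20 and 0.351 CPM in wildtype replicates 1 to 3 (log2 fold change 1.06, SE 0.42, edgeR adjusted p = 0.675). NEB, which encodes nebulin, had 3.64, 2.89 and 2.63 CPM in deletion and 3.54, 3.27 and 3.61 CPM in wildtype animals. Choroid plexus markers summed to 57.3, 40.4 and 39.1 CPM in deletion and 30.5, 28.4 and 38.4 CPM in wildtype replicates 1 to 3. The lowest deletion sum thus lay just above the highest wildtype sum. Their mean log2 deviation per library, which weights each gene equally, overlapped between the groups. It was 1.10, -0.33 and 0.01 in deletion and 0.06, -0.84 and 0.00081 in wildtype replicates 1 to 3. Of 6 listed, 5 were found and tested, 4 with positive log2 fold changes (median 0.91), and none was at 0 in all libraries. An unadjusted edgeR p under 0.05 was met by 2 of the 5 (40%), both higher in deletion, beside 3.31% of all genes. The transport protein TTR had 17.2 CPM in deletion replicate 1 and at most 1.51 CPM in every other animal. Mural cell markers had positive log2 fold changes in 7 of 7 (median 0.41), with sums of 275 to 459 CPM in deletion and 215 to 351 CPM in wildtype libraries, and oligodendrocyte markers in 8 of 8 tested (median 0.35). None of either list was at 0 in all libraries, and the summed levels of both overlapped between the groups. With an oligodendrocyte score as a covariate the log2 fold change of KLHL40 was 1.62. The part of choroid plexus and mural cells in the KLHL40 result was not tested.

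The members of low unadjusted p with lower means in deletion cortex were KLHL25, KLHL11, KLHL13 and KLHL21. Beside them, 9 of 10 inhibitory neuron markers had negative log2 fold changes. Their sum was 567 to 733 CPM in deletion and 675 to 897 CPM in wildtype libraries. Of the 10, 3 (30%) had an unadjusted edgeR p under 0.05, all lower in deletion, beside 3.96% of all genes. Groups were apart for 4 (40%), all with deletion below, beside 6.99% of all genes. The part of these markers in the lower members was not tested. KLHL25, which in human cells targets the translation repressor 4E-BP1, had 12.2, 8.48 and 7.08 CPM in deletion replicates 1 to 3, against 14.9, 19.96 and 11.4 CPM in wildtype replicates 1 to 3. Deletion replicate 1 lay above wildtype replicate 3, so the groups overlapped. The fold was 0.602, with an interval of 0.402 to 0.903 (log2 fold change -0.73, SE 0.26, edgeR adjusted p = 0.675). The log2 ratio of mean CPM, taken without a model, was -0.28 between the animals numbered 14 (replicate 1 of each group). It was -1.01 between those numbered 15.

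KLHL11, known as an autoantigen in a paraneoplastic brain inflammation of people, had 31.7, 22.9 and 22.9 CPM in deletion replicates 1 to 3, against 35.3, 35.8 and 33.5 CPM in wildtype replicates 1 to 3. The 3 wildtype animals lay close together, and deletion replicate 1 lay nearer to them than to the other deletion animals. The log2 fold change was -0.43 (SE 0.14, edgeR adjusted p = 0.675). The log2 ratio of mean CPM was -0.16 between the animals numbered 14 (replicate 1 of each group) and -0.60 between those numbered 15.

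KLHL9, KLHL13 and KLHL21 direct the CUL3 ligase to the mitotic kinase Aurora B in human cells. KLHL13 had 44.1, 32.7 and 39.2 CPM in deletion replicates 1 to 3, against 49.0, 70.7 and 41.7 CPM in wildtype replicates 1 to 3. Wildtype replicate 2 stood far above the rest, and without it the log2 fold change was -0.23, against -0.48 (SE 0.20) with all animals. KLHL21 had 23.1, 25.7 and 22.2 CPM in deletion and 30.3, 33.7 and 24.5 CPM in wildtype animals, with wildtype replicate 3 inside the deletion range. Its log2 fold change was -0.32 (SE 0.14), and -0.21 without wildtype replicate 2. KLHL9, a close relative of KLHL13, had 59.8, 71.7 and 68.9 CPM in deletion and 62.4, 61.5 and 68.8 CPM in wildtype animals (log2 fold change 0.06, SE 0.10). How reads shared between close relatives were counted is not stated, so KLHL9 and KLHL13 are uncertain to that extent. AURKB itself was near the limit of detection, at 0.917 ± 0.461 CPM in deletion and 1.05 ± 0.139 CPM in wildtype cortex (SD, n = 3 each).

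**Figure D4:**
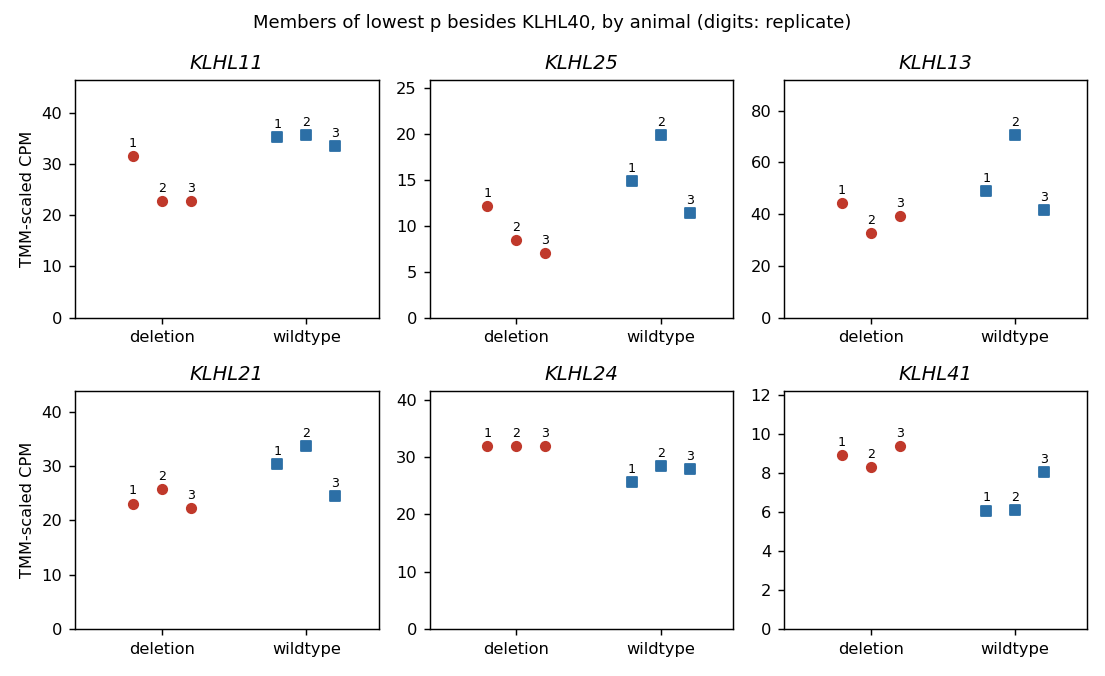
TMM-scaled CPM of the 6 members of lowest p besides KLHL40, by animal, with replicate numbers beside the points (deletion red circles, wildtype blue squares). KLHL25 and KLHL13 were highest in wildtype replicate 2, and the 3 deletion animals of KLHL24 coincided at 31.9 CPM.

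KLHL24, which sets the level of a skin keratin in people, had 31.9 CPM in each of the 3 deletion animals, against 25.6, 28.4 and 27.9 CPM in wildtype replicates 1 to 3. Every deletion animal lay above every wildtype animal, at a log2 fold change of 0.22 (SE 0.10, edgeR adjusted p = 0.675). The remaining members whose groups did not overlap were KLHL29 and KLHL18, both lower in deletion. KLHL29 averaged 21.3 ± 3.75 CPM in deletion and 26.2 ± 0.887 CPM in wildtype cortex, and KLHL18 33.3 ± 0.430 CPM in deletion and 35.5 ± 0.620 CPM in wildtype cortex (SD, n = 3 each). The log2 fold changes were -0.30 (SE 0.14) for KLHL29 and -0.09 for KLHL18, an adaptor tied to entry into mitosis.

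CUL3, the scaffold shared by all adaptors, had 91.0, 92.8 and 95.4 CPM in deletion replicates 1 to 3, against 78.4, 81.6 and 97.3 CPM in wildtype replicates 1 to 3. Wildtype replicate 3 was the highest of the 6, so the groups overlapped, and the fold was 1.09 with an interval of 0.922 to 1.28. Of 27 listed genes of the ligase core, its NEDD8 modification and the COP9 signalosome that removes NEDD8, 22 were tested. Of these, 15 had positive and 7 negative log2 fold changes (median 0.07), 2 had an unadjusted p under 0.05, beside 7.28% of all genes, and 0 passed adjustment. RBX1, the ring subunit, had 139, 151 and 154 CPM in deletion and 116, 129 and 135 CPM in wildtype replicates 1 to 3 (log2 fold change 0.22, SE 0.09). The signalosome subunit COPS9 averaged 88.2 ± 5.81 CPM in deletion and 73.2 ± 6.98 CPM in wildtype cortex, and the catalytic subunit COPS5 55.4 ± 7.51 CPM in deletion and 45.8 ± 5.40 CPM in wildtype cortex (SD, n = 3 each). UBE2M, the NEDD8-conjugating enzyme, had a log2 fold change of 0.04.

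KEAP1, the sensor of oxidative stress in this family, had 74.5, 72.2 and 79.2 CPM in deletion replicates 1 to 3, against 73.0, 85.6 and 74.6 CPM in wildtype replicates 1 to 3, a fold of 0.968 with an interval of 0.830 to 1.13. Its substrate NFE2L2 averaged 33.3 ± 2.14 CPM in deletion and 31.1 ± 0.653 CPM in wildtype cortex (SD, n = 3 each). Of 27 listed genes, NFE2L2, its small MAF partners and well-known targets, 23 were tested. With edgeR, 0 of the 23 had an unadjusted p under 0.05, beside 7.28% of all genes. Their median log2 fold change was 0.08, with 13 positive and 10 negative. Groups were apart for 5 of them (21.7%, beside 13.8% of all genes). Deletion lay above wildtype in 4 of these, beside 6.8% of all genes, and below in 1, beside 6.99% of all genes. Those above were GCLC and GCLM, the subunits of the enzyme that starts glutathione synthesis, GSR and BLVRB. Their log2 fold changes were 0.18, 0.17, 0.19 and 0.25. The gene below was TXNRD1, a thioredoxin reductase, with -0.15. FTL and SQSTM1, whose groups overlapped, had log2 fold changes of 0.21 and 0.07.

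KBTBD2, which in mice limits the PI3-kinase subunit p85α and so keeps insulin signalling intact, had 29.2, 28 and 25.5 CPM in deletion replicates 1 to 3, against 24.4, 29.7 and 27.3 CPM in wildtype replicates 1 to 3. The fold was 1.02, with an interval of 0.845 to 1.22. Its substrate gene PIK3R1 averaged 195 ± 22.1 CPM in deletion and 200.2 ± 10.4 CPM in wildtype cortex (SD, n = 3 each).

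KLHL2 and KLHL3 both bind WNK kinases, which act through STK39 and OXSR1 on the chloride cotransporters of neurons. KLHL2 had 175, 188 and 150.1 CPM in deletion replicates 1 to 3, against 157, 159 and 160.3 CPM in wildtype replicates 1 to 3. The wildtype animals lay inside the range of the deletion animals, and the fold was 1.08 with an interval of 0.917 to 1.26. KLHL3, mutated in a familial hypertension of people, had 31.1, 24.2 and 28.4 CPM in deletion and 30.3, 31.6 and 36.2 CPM in wildtype animals (log2 fold change -0.23, SE 0.13).

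Of 15 listed genes of the WNK pathway 14 were tested, 7 with positive and 7 with negative log2 fold changes, and 2 had an unadjusted p under 0.05 (14.3%, beside 7.28% of all genes). WNK2 had 149, 134 and 129.8 CPM in deletion and 212, 187 and 149.8 CPM in wildtype replicates 1 to 3, with the lowest wildtype animal just above the highest deletion animal (log2 fold change -0.41, SE 0.13, edgeR adjusted p = 0.675). The cotransporter gene SLC12A1, at about 1 TPM, had a log2 fold change of -0.60 (SE 0.25). SLC12A5, the neuronal chloride extruder, averaged 611 ± 31.9 CPM in deletion and 701 ± 122 CPM in wildtype cortex (SD, n = 3 each). CAB39 had a log2 fold change of 0.27.

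Other adaptors with known roles in neurons or signalling had an unadjusted p above 0.05. KLHL17, a brain actin-binding adaptor for the kainate receptor subunit GluK2, averaged 13.7 ± 0.824 CPM in deletion and 13.5 ± 1.08 CPM in wildtype cortex, and the receptor gene GRIK2 16.0 ± 0.293 CPM in deletion and 18.4 ± 1.25 CPM in wildtype cortex (SD, n = 3 each). KLHL20, which acts on the autophagy kinase ULK1 and on DAPK1, had a log2 fold change of 0.17 (SE 0.11). KLHL15, which targets a phosphatase PP2A subunit, had one of 0.01, and KLHL42, an adaptor for the microtubule-severing protein katanin, one of -0.13. KLHL7, mutated in an inherited retinal degeneration of people, had 51.1, 66.7 and 58.4 CPM in deletion and 49.4, 43.7 and 63.3 CPM in wildtype replicates 1 to 3 (log2 fold change 0.17, SE 0.16). KLHL1, a neuronal member related to Drosophila kelch, varied several-fold between animals, with 1.73, 3.90 and 3.80 CPM in deletion and 4.63, 3.89 and 1.56 CPM in wildtype animals (fold 0.925, interval 0.459 to 1.86). The 11 tested members without a genotype comparison above were KLHL4, KLHL5, KLHL8, KLHL14, KLHL23, KLHL26, KLHL28, KLHL32, KLHL34, KLHL35 and KLHL36. Their log2 fold changes lay between -0.23 (KLHL35) and 0.24 (KLHL8).

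Of 32 listed substrates or partners of kelch-like adaptors, 28 were tested, 11 with positive and 17 with negative log2 fold changes (median -0.06), and 3 had an unadjusted p under 0.05 (10.7%, beside 7.28% of all genes). ULK1 had 60.3, 58.8 and 62.3 CPM in deletion and 87.8, 82.7 and 78.8 CPM in wildtype replicates 1 to 3 (log2 fold change -0.46, SE 0.09, edgeR adjusted p = 0.675). DVL3, a Wnt signalling protein, had a log2 fold change of -0.25, and GFAP, an astrocyte filament protein, one of 0.36. GFAP is also 1 of the 8 listed astrocyte markers. Their sum, which includes GFAP, was 5538 to 6448 CPM in deletion and 4824 to 5543 CPM in wildtype libraries. Of the 8 markers, 5 had positive and 3 negative log2 fold changes. Their mean log2 deviation per library, which weights each gene equally, overlapped between the groups. It was 0.20, -0.01 and -0.17 in deletion and 0.08, 0.09 and -0.19 in wildtype replicates 1 to 3. NEFL had a log2 fold change of 0.06.

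Among BTB-kelch genes named outside the KLHL series, 12 of 13 were tested and 1 had an unadjusted p under 0.05 (8.33%, beside 7.28% of all genes). That gene was ENC1, an actin-binding adaptor of excitatory neurons, with 529.7, 326 and 338 CPM in deletion and 714, 675 and 491 CPM in wildtype replicates 1 to 3. Deletion replicate 1 lay above wildtype replicate 3, so the groups overlapped (log2 fold change -0.65, SE 0.21, edgeR adjusted p = 0.675). At a mean of 275 TPM it stood above every member of the family. IVNS1ABP had a log2 fold change of 0.19, KBTBD3 one of -0.40 and LZTR1, an adaptor for RAS-type GTPases, one of -0.13. KLHL22, an adaptor for the kinase PLK1, is listed in the files by its ID alone and so is no member by name. It had 40.6, 43.7 and 46.8 CPM in deletion and 46.1, 51.7 and 45.1 CPM in wildtype animals (log2 fold change -0.12, SE 0.10).

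Of 25 BTB adaptors without kelch repeats 24 were tested, with a median log2 fold change of -0.05, and 1 had an unadjusted p under 0.05 (4.17%, beside 7.28% of all genes), KCTD6 (0.39, SE 0.17). KCTD13, BTBD2 and CUL2 had log2 fold changes of -0.25, -0.19 and -0.06. Of the 7 other cullins 1 (14.3%) had an unadjusted p under 0.05, beside the same 7.28% of all genes, CUL9, with 43.1, 35.8 and 40.5 CPM in deletion and 51.4, 47.1 and 46.7 CPM in wildtype replicates 1 to 3 (log2 fold change -0.28, SE 0.11). CUL1 and CUL5 had log2 fold changes of 0.18 and 0.20. None of the genes of these 7 lists passed edgeR's adjustment over all genes.

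**Figure D5:**
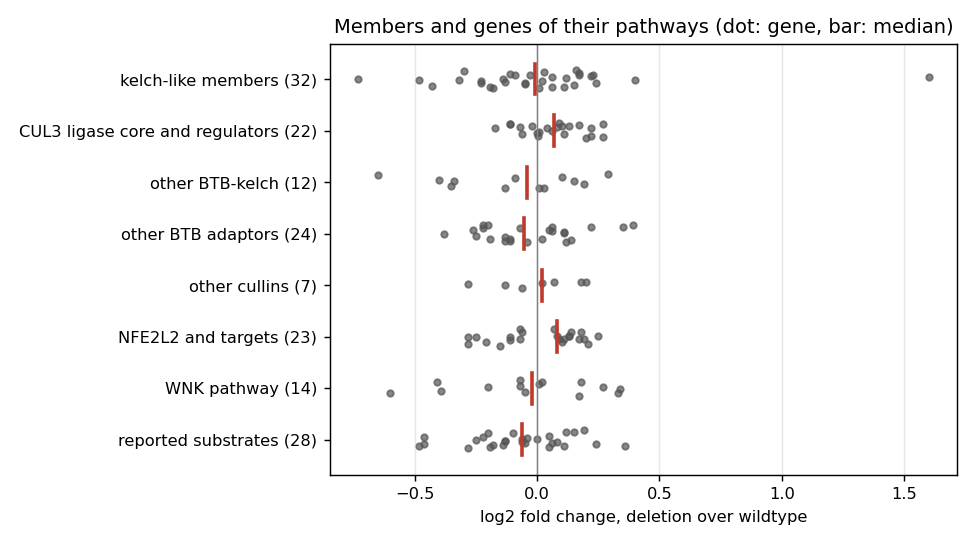
Log2 fold changes of deletion over wildtype for the 32 tested members and for the tested genes of the 7 pathway lists (dot: 1 gene, red bar: median, vertical scatter only to separate dots). List medians lay between -0.06 and 0.08, and KLHL40 at 1.60 was the value farthest from 0.

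In the authors' deposited table the members with a p under 0.05 besides KLHL40 are KLHL25 (fold change -1.66), KLHL13 (-1.39) and KLHL11 (-1.34), with adjusted p-values of 0.441, 0.746 and 0.867. No nucleotide or protein sequence of these genes was used here.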

How the data were processed

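Cortex of 6 male pigs, 3 with the maternally inherited UBE3A deletion and 3 wildtype, was grouped by the genotype in the labels, and replicates are separate animals numbered here in accession order. Libraries were made with a stranded polyadenylated-RNA kit, per the labels' protocols. Neither the aligner and counter nor the build, annotation and strand setting is named in the sources used. The authors deposited exon read counts per gene, whole numbers with blanks read as 0, which entered every test. The authors deposited TPM values, used to order genes by level and for ranks, shares and ratios within a library, and in no test. The authors' deposited comparison table gives a signed fold change, treated as a score, and p-values, whose test is not stated. Its group columns were not used.

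Genes with at least 10 reads in 3 or more libraries were scaled with TMM and tested with edgeR 4.0.16 (quasi-likelihood F test, robust) in R 4.3.3, without covariates, and p-values were adjusted over all 14556 genes by Benjamini-Hochberg at 0.05. Standard errors were derived from the log2 fold change and the F statistic. Alternatives used DESeq2 1.42.0, limma 3.58.1, other filters, covariates, and leaving out each library. The edgeR fit was also run on counts simulated from the means and dispersions of these data, and its outcome is not reported here. P-values set the difference between genotypes against the spread among these animals, which edgeR moderates over genes. Members, lists and rules for named genes were chosen with earlier results of these data known. Named in full were KLHL40, KLHL41, KEAP1, CUL3, KBTBD2, the 5 members of highest TPM and 6 of lowest p, and per list 3 genes of lowest p and 2 of highest TPM. Other genes named were chosen after their values were seen. Symbols came from the files for 16246 genes and from the gene-name table for 785 more. As a check for a library deposited more than once, counts were compared within groups, and the lowest chi-square per degree of freedom was 15.1, where a duplicate would lie near 1.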

Additional observations from a re-analysis of the deposited data

How the results depend on the processing

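Of 480 values of the 32 tested members under 15 other settings, 450 kept their direction. KLHL40 ran from 1.49 to 1.77 in log2 fold change, and its adjusted p from 9.7e-09 to 0.947. It passed with DESeq2 (9.7e-09) and with no low-count filter (edgeR adjusted p = 0.0108), so the number of members passing was 1 in those 2 settings and 0 in the other 13, including each of the 6 that left out 1 library. Over all genes, 19 passed with DESeq2, 2 without a filter, and 1 to 2 when 1 library was left out. Members at an unadjusted p under 0.05 numbered 4 with DESeq2 (6.62% of all genes) and 8 with limma-voom (16.4%). They numbered 4 when the first part of the animal number was a covariate (8.14%), and 9 with the oligodendrocyte score as a covariate (12.9%). In the other settings with all libraries there were 6 to 7 (5.69% to 7.39% of all genes). When 1 library was left out there were 1 to 8 (3.29% to 14.1% of all genes). KLHL40, by which the family was chosen, was among these members in each of the 15 settings. Why the counts moved was not tested.

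Reversals occurred in 12 members, all within 0.23 of 0 in log2 fold change. With limma-voom and sample weights KEAP1 stood at 0.0041, KLHL5 at 0.06, KLHL15 at -0.07, KLHL17 at -0.01, KLHL1 at 0.06 and KLHL14 at 0.03. With the oligodendrocyte score as a covariate KBTBD2 stood at -0.0017, KLHL34 at -0.20 and KLHL35 at 0.03. Leaving out 1 library gave -0.09 to 0.03 for KEAP1, -0.02 to 0.26 for KLHL23, -0.05 to 0.10 for KBTBD2, -0.04 to 0.15 for KLHL32, -0.13 to 0.07 for KLHL5, -0.05 to 0.09 for KLHL15, -0.03 to 0.08 for KLHL17, -0.45 to 0.19 for KLHL1, -0.65 to 0.09 for KLHL4, -0.17 to 0.60 for KLHL34 and -0.42 to 0.22 for KLHL14. The cause was not tested. The planned repeat on unique reads was not run, because the tables used hold total exon reads alone. No paired analysis was possible because the labels give no replicate numbers that groups share.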
